A study of Mus musculus with 28 samples.

Results

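The miRNAs described here are the miR-200 family and miR-205, which mark epithelial cells, in small RNA from mouse sperm. They were chosen by name: mmu-miR-200a-3p, mmu-miR-200b-3p, mmu-miR-200c-3p, mmu-miR-141-3p, mmu-miR-429-3p and mmu-miR-205-5p, 6 of the 1408 miRNA names listed in at least 1 of 3 deposited count tables. The tables hold 28 libraries. The WT table holds 12: 4 controls that received no alcohol, and exposed groups labelled low (4 libraries), medium (2) and high (2) by dose, with the amounts not given in the sources used here. The Nrf2-/- table holds 8 libraries from mice lacking Nrf2, an activator of antioxidant genes: 4 controls without alcohol and 4 ethanol libraries. The remaining 8 come from mice with a floxed Nrf2 gene, 4 without Cre (flox) and 4 that also carry Albumin-Cre, whose albumin promoter is active in hepatocytes (liver KO), so both of those groups share the floxed allele. Age and strain are not given in the sources used here.

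miRNAs pair with transcripts mainly through the seed, bases 2 to 8 of the mature strand, and lower the output of the transcripts they pair with. miR-200 family members and miR-205 are abundant in epithelia, where they hold down the transcription factors Zeb1 and Zeb2, which repress the adhesion gene Cdh1 (E-cadherin). The Zeb factors in turn repress the miR-200 genes. Sperm mature in the epididymis, a tube lined by a secretory epithelium, and the protein made from Crisp1, an epididymal transcript, coats the sperm surface.

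All 6 mature sequences were matched by name in RefSeq (mouse GRCm38.p6), and they are shown to make the shared seeds visible, with the seed in capitals.
mmu-miR-200a-3p: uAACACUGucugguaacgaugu
mmu-miR-141-3p: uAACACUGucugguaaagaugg
mmu-miR-200b-3p: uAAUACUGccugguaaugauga
mmu-miR-200c-3p: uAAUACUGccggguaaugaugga
mmu-miR-429-3p: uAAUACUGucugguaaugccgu
mmu-miR-205-5p: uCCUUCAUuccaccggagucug
miR-200a-3p and miR-141-3p share a seed, and miR-200b-3p, miR-200c-3p and miR-429-3p share another, which differs by C4U (position counted from the 5′ end, miR-200a-3p first). Outside the seed, miR-200a-3p and miR-141-3p differ at 2 positions (C17A and U22G), and miR-200b-3p and miR-200c-3p differ at 2 of the first 22 (U11G and A22G). miR-205-5p has a seed of its own and differs from miR-200a-3p at 17 of 22 positions. Seed and gene location do not coincide, since each cluster of the family makes both seeds.

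The hairpins of miR-200b, miR-200a and miR-429 lie within 1846 bases on the minus strand of chr4:156053905-156055750, where the annotation (GENCODE, GRCm38) places exons of the noncoding transcript Gm13648 and no exon of the protein-coding gene Ttll10 that spans them. The hairpins of miR-200c and miR-141 lie within 477 bases on the minus strand of chr6:124717914-124718390, between the protein-coding genes Phb2 and Ptpn6. On the same strand Gm15884, annotated as an antisense gene, spans them with no exon there, and an exon of Gm29008 overlaps the cluster. The miR-205 hairpin takes up 68 bases on the minus strand of chr1:193507463-193507530, in an exon of the long noncoding RNA 4631405K08Rik. The build behind the counts is not given in the sources used here, and counts were matched to these sequences by miRNA name.

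Total counts per library ran from 1993933 to 11119711. Transcripts of 11 sperm and spermatid genes summed to between 183 and 994 exon CPM (taken over all counts of a library) over the 28 libraries, and those of the 16 listed epididymis epithelium genes that have an exon row to between 43.3 and 1943. Marker sums of other sources ran from 1.43 to 12.4 for basal cells and keratinocytes, 0.217 to 12.9 for seminal vesicle and prostate, 3.10 to 31.9 for leukocytes, 14.9 to 357 for smooth muscle and fibroblasts and 1.89 to 63.8 for red blood cells. Sperm markers were thus found in every library, beside epididymal transcripts at levels that varied more. In some libraries the epididymis sum was above the sperm sum, as in Nrf2-/- control 1 (1589 against 183) and WT high dose 1 (1943 against 594). In others it was below, as in Nrf2-/- control 4 (43.3 against 994). Nrf2-/- controls 3 and 4 stood apart: their epididymis sums were 57.1 and 43.3, against 1589 and 1325 in Nrf2-/- controls 1 and 2. WT control 1 stood apart as well, with 75.8% of its counts on structural RNA such as tRNA, against 22.5% to 31.8% in the other WT libraries. Where leaving them out turned the log2 change of a member or moved it by over 1.5 times, the value without them is given.

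miR-200c-3p and miR-141-3p have entries that cannot be read as levels. miR-200c-3p is listed at 0 in 9 of 12 WT libraries, all 4 controls among them, where its other entries would give 1366 to 11585 reads. It has 5233 counts in WT low dose 2, 8169 in WT low dose 3 and 7957 in WT medium dose 1. In the Nrf2-/- table it is listed at 0 in 6 of 8 libraries and at 6615 counts in control 4 and 57010 in ethanol 3. miR-141-3p is listed at 0 in 4 WT and 3 Nrf2-/- libraries where 1696 to 4808 reads would be expected. A 0 where at least 50 reads were expected was treated as missing, so miR-200c-3p had no value in the WT comparisons, and its 2 Nrf2-/- entries are given as single values. In the flox and liver KO table, all 6 members have counts in all 8 libraries.

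Over the 8 flox and liver KO libraries, miR-200c-3p had the highest mean level of the members, 8339 CPM, taken over miRNA counts after TMM scaling (edgeR's correction for composition). miR-200a-3p followed at 4199 CPM, then miR-200b-3p at 2188, miR-141-3p at 1958, miR-429-3p at 1393 and miR-205-5p at 922. The 6 together made up 2.56% ± 0.468 (SD, n = 4) of miRNA counts in flox libraries. Neighbours in this order overlapped across libraries, as miR-200b-3p (936 to 3236 CPM) and miR-141-3p (266 to 3139 CPM) did. In the WT table, miR-200b-3p (4370 CPM over 12 libraries) stood above miR-200a-3p (3371 CPM), and miR-205-5p (1092 CPM) and miR-429-3p (925 CPM) were lowest. Without WT control 1 the order of the lowest pair turned, with miR-429-3p at 734 CPM and miR-205-5p at 518 CPM over 11 libraries. In the Nrf2-/- table the order over 8 libraries was miR-200a-3p (1625 CPM), miR-429-3p (996 CPM), miR-200b-3p (840 CPM) and miR-205-5p (209 CPM). Without Nrf2-/- controls 3 and 4 that order was the same, at 2126, 1313, 1108 and 273 CPM. The tables were scaled separately, and genotypes in different tables were not tested against each other.

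**Figure D1:**
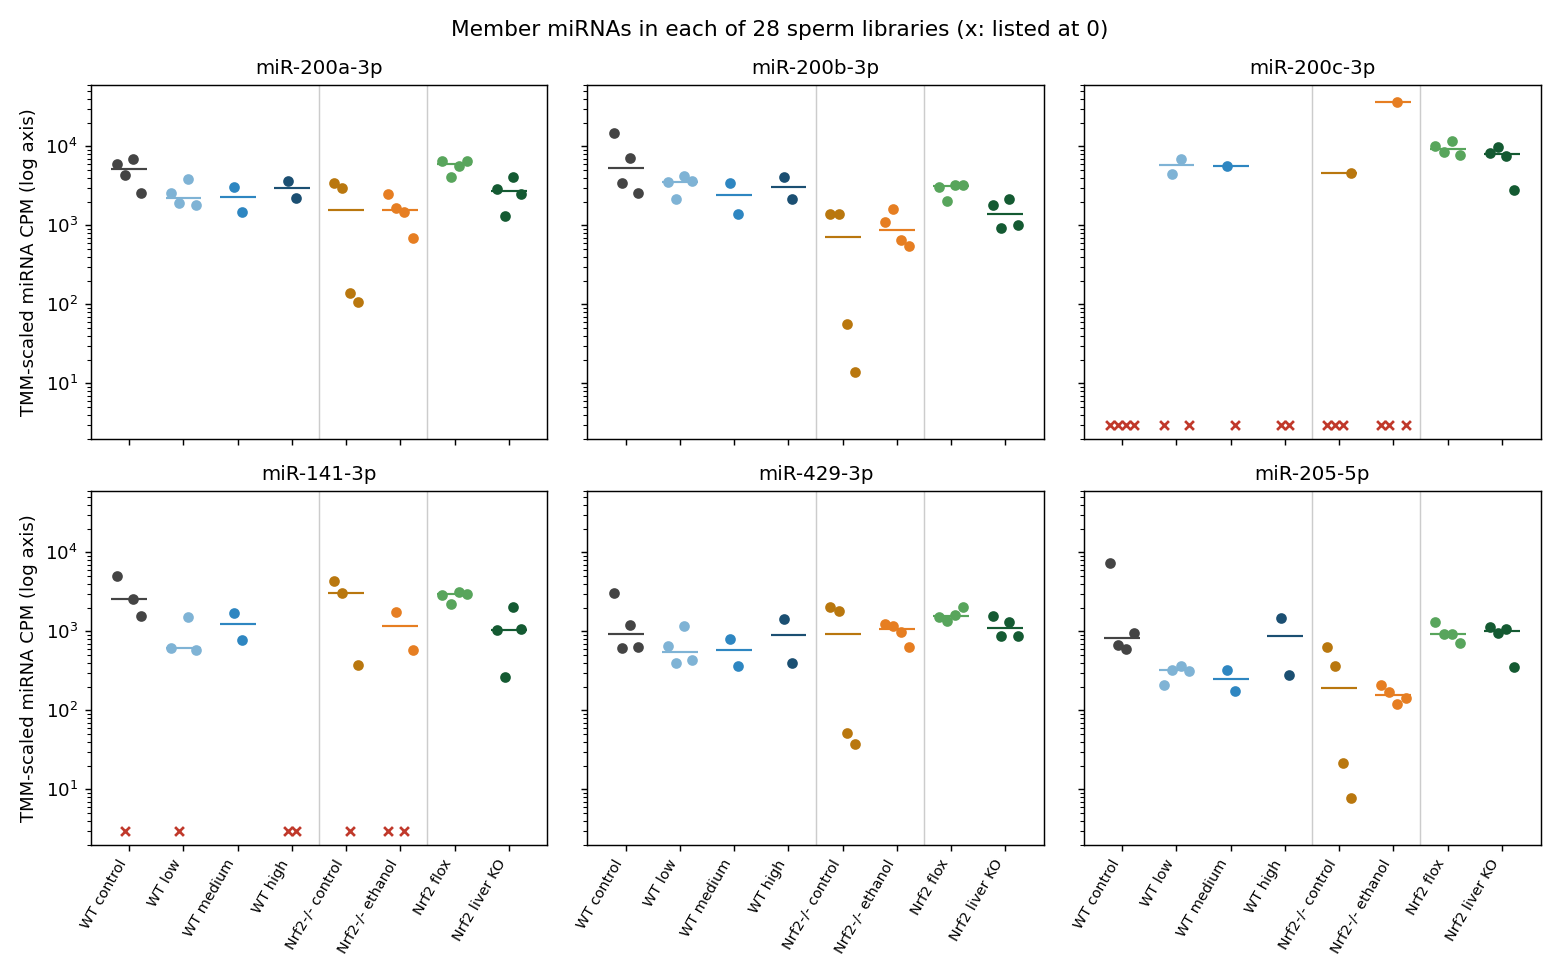
CPM of each member (log axis) in every library with a count above 0, by group; points are libraries, crosses are entries listed at 0, and bars are medians over the points. For miR-200a-3p, miR-200b-3p, miR-429-3p and miR-205-5p, Nrf2-/- controls 3 and 4 lie far below controls 1 and 2.

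The first comparison, in WT mice, sets low-dose alcohol against no alcohol. All 5 members with a value had lower fitted levels at low dose than in controls, by 0.96 to 2.99 on the log2 scale, and none passed the threshold (0 of 5 by edgeR's quasi-likelihood test at an adjusted p of 0.05, beside 0% of 338 miRNAs tested). By unadjusted p under 0.05, 2 of the 5 members and 41 of the 338 miRNAs were below. The median log2 change was -1.05 over the members and -0.13 over all miRNAs tested, of which 184 were lower and 154 higher. DESeq2 called 24 miRNAs and limma 0, with 0 members in either. The labels do not say that libraries come from separate animals, so p-values measure only the spread between these samples. In bulk RNA such as this, fewer cells of a type and less RNA per cell cannot be told apart.

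miR-205-5p, the member with its own seed, stood at 7408, 680, 607 and 959 CPM in WT controls 1 to 4. At low dose it stood at 212, 326, 361 and 317 CPM in libraries 1 to 4. All 4 low-dose libraries were below all 4 controls, and control 1 was far above the other controls. The mean was 304 ± 64.3 at low dose and 2413 ± 3333 in controls (SD, n = 4 each). The log2 change was -2.99 (SE 0.92, adjusted p = 0.359 by edgeR). Without WT control 1 it was -1.23 (SE 0.51, adjusted p = 0.571 by edgeR), still with no overlap. How many of all miRNAs tested also had no overlap was not counted in any comparison, so such separation is a description only. It was not particular to the members. Of the miRNAs most like them (named below), miR-21a-5p ran from 13087 to 28373 CPM in WT controls and from 7170 to 12791 CPM at low dose. miR-10b-5p ran from 3472 to 23720 CPM and from 2089 to 3219 CPM, also with no overlap. miR-34a-5p, miR-26b-5p and miR-182-5p overlapped.

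miR-141-3p stood at 5053, 2582 and 1567 CPM in WT controls 1, 3 and 4 and at 622, 1540 and 579 CPM in low-dose libraries 1, 3 and 4. These libraries did not overlap either, although control 4 and low dose 3 were close, and the share of all miRNAs that separate in this way was not counted. The log2 change was -1.61 (SE 0.62, adjusted p = 0.414 by edgeR), from a fit without the 4 libraries where it is missing. Without WT control 1 it was -1.14.

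miR-200a-3p, which shares the seed of miR-141-3p, stood at 5929, 4385, 6916 and 2600 CPM in controls and at 2568, 1918, 3884 and 1827 CPM at low dose. Control 4 lay within the low-dose range, so the groups overlapped. The log2 change was -0.96 (SE 0.45, adjusted p = 0.418 by edgeR). The overlap depended on the scaling: in CPM of miRNA counts without TMM, controls ran from 4543 to 7263 and low-dose libraries from 1630 to 3785, with no overlap, and the log2 change was -1.25 (adjusted p = 0.275 by edgeR).

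miR-200b-3p stood at 14693, 3482, 7163 and 2583 CPM in controls and at 3508, 2160, 4162 and 3658 CPM at low dose, so controls 2 and 4 lay among the low-dose libraries. Its cluster neighbour miR-429-3p stood at 3027, 611, 1205 and 629 CPM in controls and at 658, 394, 1155 and 434 CPM at low dose. Both had their highest value in WT control 1. Their log2 changes were -1.05 (SE 0.59) and -1.05 (SE 0.67), with adjusted p of 0.499 and 0.569 by edgeR. Without WT control 1 these were -0.35 and -0.26, so their size depended on that library. Without WT controls 1 and 3, the 2 highest controls for both, they were 0.13 and 0.075. Leaving out the highest controls raises a change in any data, so that pair cannot settle the direction. With any single library left out both stayed below 0.

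The medium and high doses had 2 libraries each. In the deposited table the column name of medium dose 1 starts like those of the high dose, and the grouping here is that of the labels. At medium dose, all 5 members with a value had a lower fitted level than controls, with a median log2 change of -1.23 beside -0.14 over all miRNAs tested. None passed by edgeR (0% of 338 miRNAs called, 9 of 338 and 1 of 5 members under an unadjusted p of 0.05, lowest adjusted p of a member 0.704). DESeq2 called 7 miRNAs and no member. miR-205-5p stood at 328 and 176 CPM, below every control, with a log2 change of -3.26 (SE 1.25), and -1.58 without WT control 1. Without that library miR-200b-3p was at -0.91 and miR-429-3p at -0.51, against -1.53 and -1.23 with it.

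At high dose the 2 libraries differed from each other, and miR-141-3p was missing in both. miR-205-5p stood at 1457 CPM in library 1, above 3 of the 4 controls, and at 281 CPM in library 2, below all of them. miR-429-3p stood at 1420 and 400 CPM, miR-200a-3p at 3674 and 2222 CPM and miR-200b-3p at 4062 and 2129 CPM, each with library 1 the higher. Log2 changes from control were -0.75 for miR-200a-3p, -1.17 for miR-200b-3p, -0.59 for miR-429-3p and -1.47 for miR-205-5p, and none passed (0% of 338 miRNAs by edgeR, 9 of them and 0 of 4 members under an unadjusted p of 0.05, adjusted p of 1 for each member). DESeq2 called 7 miRNAs and no member. Without WT control 1, miR-200b-3p was at -0.54, miR-429-3p at 0.14 and miR-205-5p at 0.21, so the lower direction of the last 2 rests on that library. Without WT controls 1 and 3 these members were at 0.022, 0.55 and 0.080. For miR-200b-3p and miR-429-3p those were the 2 highest controls, and leaving them out raises a change in any data. Crisp1 exons also differed between the libraries, at 1130 CPM in high dose 1 and 205.4 CPM in high dose 2, and their part in the result was not tested.

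**Figure D2:**
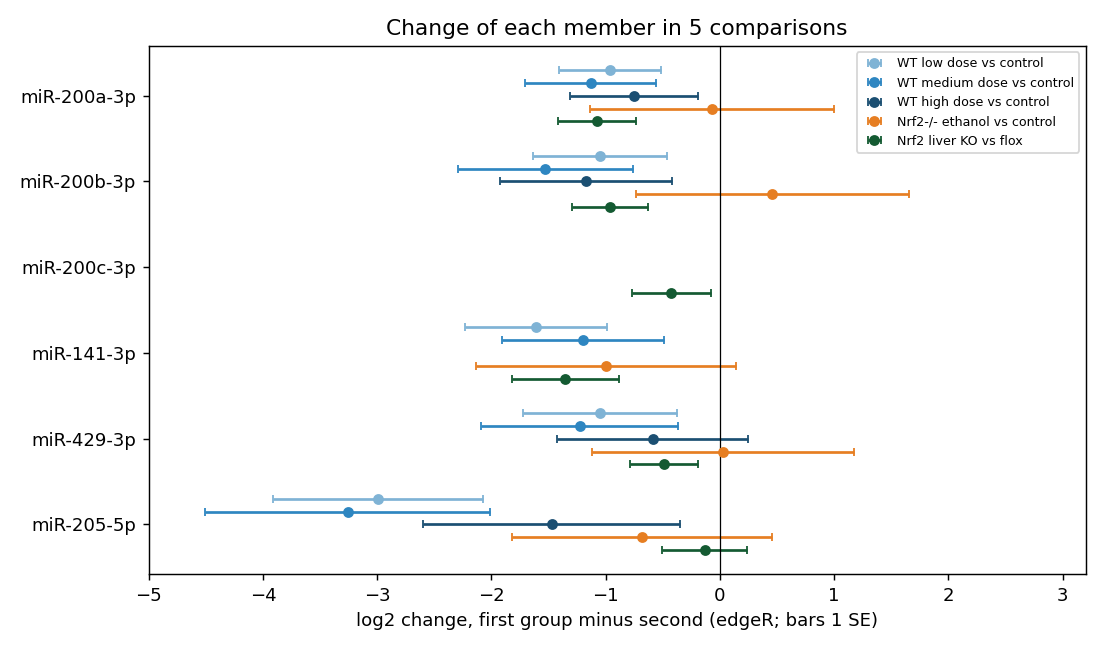
Log2 change of each member with its SE (bars) in the comparisons of the study; a point at 0 means equal fitted levels. Points lie below 0 in all WT dose comparisons and in liver KO, and scatter around 0 with wide bars in the Nrf2-/- comparison.

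In Nrf2-/- mice the question was whether alcohol goes with sperm RNA changes when Nrf2 is absent. The controls themselves split into a pair of high and a pair of low libraries. miR-200a-3p stood at 3402, 3008, 139 and 107 CPM in controls 1 to 4 and at 2487, 1669, 1496 and 693 CPM in ethanol libraries 1 to 4. miR-200b-3p stood at 1378, 1384, 56.6 and 13.9 CPM in controls and at 1090, 1593, 663 and 543 CPM with ethanol. Every ethanol library thus lay above controls 3 and 4 for both miRNAs.

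The same held for miR-429-3p, at 2032, 1822, 51.04 and 37.6 CPM in controls and 1236, 1178, 982 and 626 CPM with ethanol. It held as well for miR-205-5p, at 636, 364, 21.3 and 7.67 CPM in controls and 207, 170, 122 and 141.5 CPM with ethanol. For miR-200a-3p, miR-429-3p and miR-205-5p the ethanol libraries lay wholly between the high and the low controls. miR-141-3p stood at 4322, 3034 and 379 CPM in controls 1, 2 and 4 and at 1763 and 576 CPM in ethanol libraries 2 and 4. miR-200c-3p had counts only in control 4, at 4611 CPM, and in ethanol 3, at 36027 CPM, and was not tested.

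No member passed in the Nrf2-/- comparison (0% of 237 miRNAs by edgeR, 3 of them and 0 of 5 members under an unadjusted p of 0.05, and 0 by DESeq2 and limma). Fitted log2 changes were -0.07 for miR-200a-3p (SE 1.07), 0.46 for miR-200b-3p (SE 1.195), -0.996 for miR-141-3p (SE 1.14), 0.03 for miR-429-3p (SE 1.15) and -0.68 for miR-205-5p (SE 1.14), with edgeR adjusted p from 0.997 to 0.999. Without controls 3 and 4 they were -0.89, -0.38, -1.50, -0.80 and -1.47 in that order, and the lowest adjusted p was 0.712. miR-200b-3p and miR-429-3p thus had the opposite sign without those 2 controls. The sign of miR-429-3p, whose change was near 0, also turned without ethanol 1 (-0.039) or ethanol 2 (-0.052). miR-141-3p ran from -2.04 without ethanol 2 to -0.36 without ethanol 4. In controls 3 and 4, miRNAs also held 21.5% and 22.7% of all counts, against 36.6% to 54.5% in the other 6 libraries of the table, and the part of this in the result was not tested.

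The difference between the alcohol responses, Nrf2-/- ethanol minus WT low dose, was above 0 for all 5 members with a value, from 0.76 for miR-141-3p to 2.52 for miR-205-5p (SE 1.46). It did not pass for any of them (0% of 372 miRNAs by edgeR, 25 of them and 0 of 5 members under an unadjusted p of 0.05, adjusted p of members from 0.781 to 1.000). DESeq2 called 7 miRNAs and no member. With all libraries it was 1.05 for miR-200a-3p, 1.69 for miR-200b-3p and 1.30 for miR-429-3p. Without Nrf2-/- controls 3 and 4 it was 0.11 for miR-200a-3p, 0.73 for miR-200b-3p, 0.23 for miR-141-3p, 0.34 for miR-429-3p and 1.58 for miR-205-5p. Without WT control 1 it was 0.88, 0.92, 0.058, 0.42 and 0.64 in that order. Without Nrf2-/- control 1 it was 3.42 for miR-205-5p, so its size depended on single libraries.

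The liver KO comparison asks whether loss of Nrf2 in the liver goes with changes in sperm RNA. All 6 members had lower fitted levels in liver KO than in flox libraries, and the sum of the 6 was 1.33% ± 0.449 of miRNA counts (SD, n = 4), beside 2.56% in flox, a difference given with no test. By edgeR none passed (0% of 295 miRNAs called), with 3 of 6 members and 40 of 295 miRNAs under an unadjusted p of 0.05. DESeq2 and limma called 0 miRNAs. The median log2 change was -0.73 over the members and 0.03 over all miRNAs tested, of which 142 were lower and 153 higher.

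miR-141-3p stood at 2907, 2253, 3139 and 2962 CPM in flox libraries 1 to 4 and at 1026, 266, 2052 and 1057 CPM in liver KO libraries 1 to 4. The groups did not overlap, and liver KO 2 was lowest. The share of all miRNAs without overlap between these groups was not counted. The log2 change was -1.35 (SE 0.46, adjusted p = 0.336 by edgeR). It was the one member called under any setting tried: with no filter on low counts it was at -1.31 with an adjusted p of 0.0169 by edgeR.

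miR-200a-3p stood at 6463, 4074, 5681 and 6587 CPM in flox and at 2916, 1313, 4093 and 2469 CPM in liver KO libraries. The groups overlapped only through flox 2 and liver KO 3, which were nearly equal. The log2 change was -1.08 (SE 0.34, adjusted p = 0.336 by edgeR). miR-200b-3p, from the same cluster, stood at 3086, 2034, 3236 and 3210 CPM in flox and at 1789, 936, 2190 and 1022 CPM in liver KO. Flox 2 was again the lowest of its group and liver KO 3 the highest of its own, and the log2 change was -0.96 (SE 0.34).

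The other 3 members overlapped more between the groups. miR-200c-3p stood at 10039, 8552, 11823 and 7810 CPM in flox and at 8307, 9842, 7535 and 2805 CPM in liver KO, with liver KO 4 apart from the rest, and its log2 change was -0.42 (SE 0.35), which ran from -0.64 without liver KO 2 to -0.17 without liver KO 4. miR-429-3p stood at 1530, 1361, 1614 and 2007 CPM in flox and at 1573, 874, 1317 and 865 CPM in liver KO, with a log2 change of -0.49 (SE 0.30). miR-205-5p stood at 1297, 926, 928 and 704 CPM in flox and at 1120, 964, 1082 and 352 CPM in liver KO, with a log2 change of -0.13 (SE 0.37). Liver KO libraries 1, 2 and 3 thus lay inside the flox range for miR-205-5p.

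Members made from one cluster did not keep a fixed ratio. The ratio of miR-200c-3p to miR-141-3p counts was 3.45, 3.80, 3.77 and 2.64 in flox libraries and 8.10, 37.0, 3.67 and 2.65 in liver KO libraries. Liver KO 2 held 77 counts of miR-141-3p beside 2849 of miR-200c-3p. miR-200a-3p to miR-200b-3p ran from 1.40 to 2.42 over the same 8 libraries, and miR-200b-3p to miR-429-3p from 1.07 to 2.02. Across tables the median ratio of miR-200a-3p to miR-200b-3p was 0.919 in WT, 2.27 in Nrf2-/- and 1.94 in the flox and liver KO libraries. The median ratio of miR-200b-3p to miR-429-3p was 5.08, 0.813 and 1.55 in the same order, and these ranges did not overlap between the WT table (2.86 to 8.43) and the others. The table goes with genotype, so the 2 cannot be told apart.

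**Figure D3:**
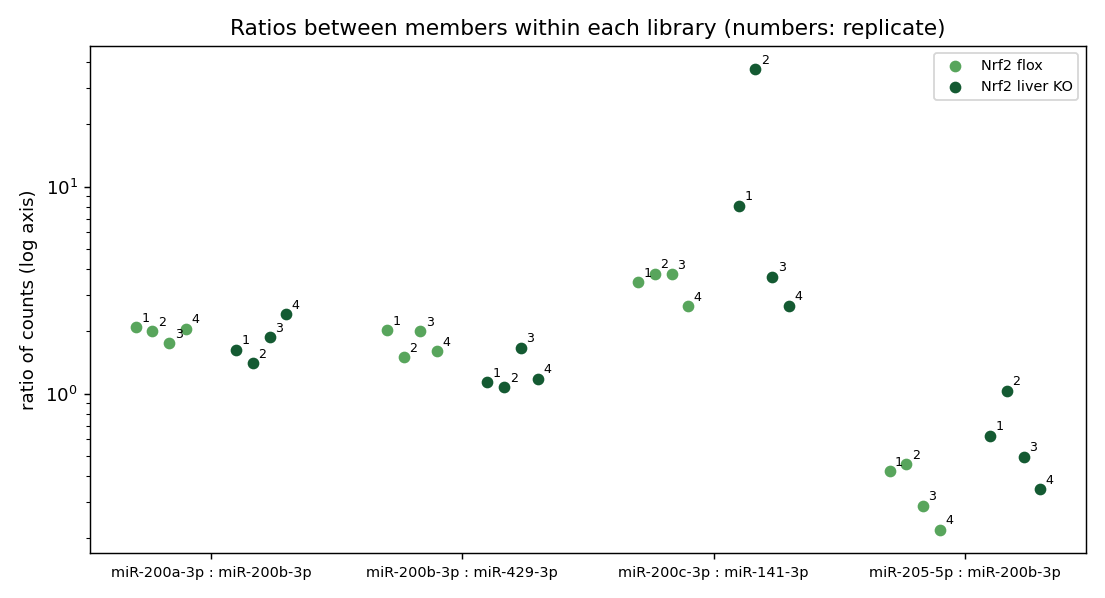
Ratios of counts between pairs of members (log axis) in the 8 flox and liver KO libraries; points are libraries, numbered by replicate. Ratios of miR-200a-3p to miR-200b-3p lie between 1.40 and 2.42, and the ratio of miR-200c-3p to miR-141-3p reaches 37.0 in liver KO 2.

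Other arms and precursors of these hairpins had few counts. miR-200a-5p had 5 counts over the WT table, 77 over the Nrf2-/- table and 846 over the flox and liver KO table, against 37894, 31399 and 22628 of miR-200a-3p. miR-141-5p had 261, 190 and 776 counts, and miR-205-3p 4, 11 and 8. miR-200b-5p had 893 counts in the flox and liver KO table, where its log2 change in liver KO was 0.27 (SE 0.39). In that comparison miR-200a-5p was at -0.78 (SE 0.40, adjusted p = 0.435 by edgeR) and miR-141-5p at -0.44 (SE 0.35). With only 84 counts, miR-200c-5p was at -1.20 (SE 0.69), and none of these arms passed. By fitted value the most negative minor arm was that of miR-200c-3p, itself at -0.42. With these counts and SEs the arms cannot be put in order.

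Crisp1 exons were compared with the members because Crisp1 marks the epididymal epithelium. Crisp1 stood at 472, 463, 465 and 477 CPM in flox libraries and at 150, 222, 386 and 114 CPM in liver KO libraries, with no overlap. The share of all exon features without overlap between these groups was not counted, and 3273 of 5319 were lower in liver KO. In Nrf2-/- controls 1 to 4 Crisp1 stood at 933, 921, 29.8 and 10.1 CPM, the same split into high and low pairs as miR-200a-3p. With ethanol it stood at 192, 157, 118 and 302 CPM. In WT controls it stood at 132, 256, 425 and 391 CPM and at low dose at 264, 116, 292 and 151 CPM, with overlap. The log2 change of Crisp1 was -0.86 in liver KO (SE 0.25, adjusted p = 0.162 by edgeR) and -0.62 at low dose (SE 0.42).

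Over libraries, as deviations from group means of log2(CPM + 1), every member varied in the same direction as Crisp1. Pearson's r was 0.82 for miR-200a-3p (rho 0.60), 0.81 for miR-200b-3p (rho 0.52), 0.82 for miR-429-3p (rho 0.59) and 0.73 for miR-205-5p (rho 0.52) over 28 libraries. It was 0.60 for miR-141-3p (rho 0.34, 21 libraries) and 0.61 for miR-200c-3p (rho 0.48, 10 libraries). None passed adjustment over the 176 miRNAs compared (0% called, permutation adjusted p of 0.289 for the first 5 and 0.331 for miR-200c-3p, unadjusted permutation p from 0.0432 to 0.205; for rho, adjusted p from 0.244 to 0.437 and unadjusted from 0.0324 to 0.295). The median r of the other 170 miRNAs was 0.149.

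For miR-200a-3p, miR-200b-3p, miR-429-3p and miR-205-5p, the relation on this scale rests on Nrf2-/- controls 3 and 4, the 2 libraries farthest from the median of Crisp1. For miR-141-3p, which is missing in control 3, it rests on control 4. Without those 2 libraries r was 0.26 for miR-200a-3p, 0.19 for miR-200b-3p, 0.29 for miR-429-3p, 0.13 for miR-205-5p and 0.044 for miR-141-3p, with a permutation adjusted p of 0.990. The median of the other miRNAs was then 0.040. For miR-200c-3p, whose Nrf2-/- entries were not used, r stayed at 0.61 with the same adjusted p. Among the 12 WT libraries r ran from 0.034 for miR-205-5p to 0.51 for miR-200a-3p, and among the 8 flox and liver KO libraries from 0.21 for miR-141-3p to 0.60 for miR-205-5p. Among the 8 Nrf2-/- libraries it ran from 0.91 to 0.98 for the 4 members with values in all 8 libraries. No within-table value passed adjustment.

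WT control 1 combined the lowest Crisp1 of the WT controls with the highest miR-200b-3p, miR-429-3p, miR-141-3p and miR-205-5p. Its Crisp1 value is divided by a total of which 75.8% was structural RNA. As CPM of counts outside structural RNA, Crisp1 stood at 545, 337, 597 and 504 in WT controls 1 to 4, and WT control 1 was no longer the lowest. On that scale, an alternative chosen after the data were seen, r over 28 libraries was 0.87 for miR-200b-3p, 0.88 for miR-429-3p and 0.83 for miR-205-5p (permutation adjusted p of 0.0767, 0.0770 and 0.0767). It was 0.83 for miR-200a-3p, 0.65 for miR-141-3p (21 libraries) and 0.72 for miR-200c-3p (10 libraries), with permutation adjusted p of 0.112, 0.176 and 0.211. Without Nrf2-/- controls 3 and 4, r was 0.44 for miR-200b-3p, 0.54 for miR-429-3p, 0.46 for miR-205-5p, 0.30 for miR-200a-3p and 0.20 for miR-141-3p (lowest permutation adjusted p = 0.399). It stayed at 0.72 for miR-200c-3p, and the median of the other miRNAs was 0.0016. Within the WT libraries it ran from 0.46 for miR-205-5p to 0.75 for miR-429-3p (permutation adjusted p from 0.329 to 0.500). None of the 6 passed on this scale.

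**Figure D4:**
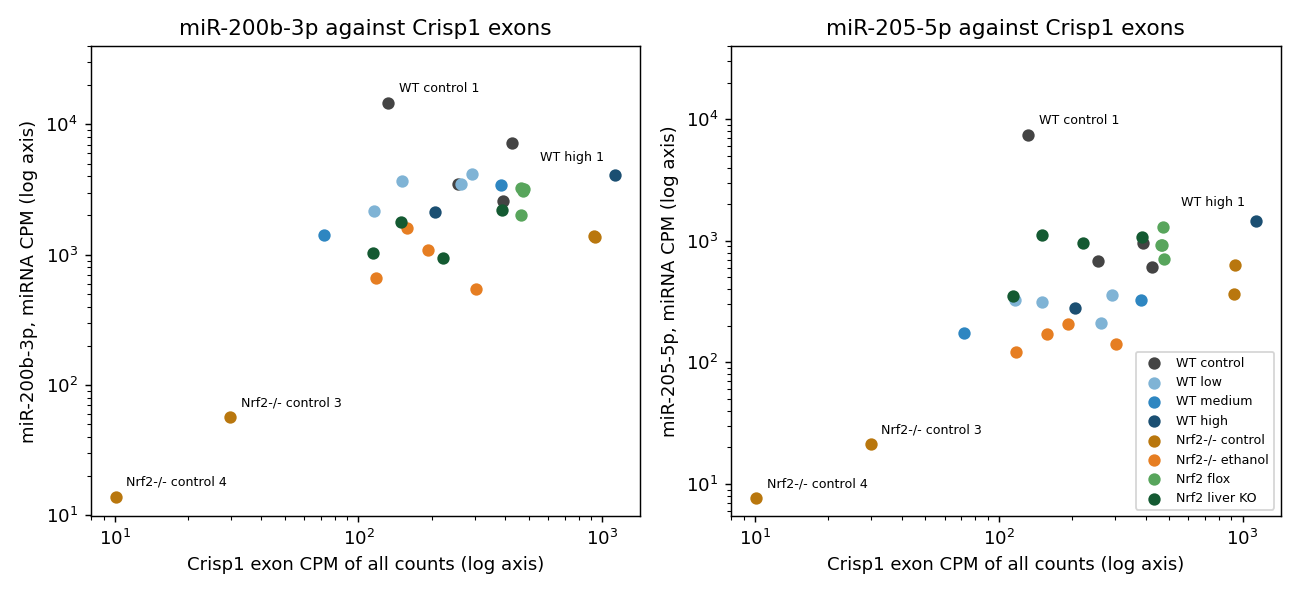
CPM of miR-200b-3p and miR-205-5p against Crisp1 exon CPM (both log axes), 1 point a library, coloured by group. Nrf2-/- controls 3 and 4 lie at the lower left, at 29.8 and 10.1 CPM of Crisp1, and WT control 1 lies above the other libraries.

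The miRNAs most like the members, by the correlation over 28 libraries between deviations from group means and the mean deviation of the members, were miR-34a-5p (r = 0.94), miR-26b-5p (0.92), miR-10b-5p (0.92), miR-21a-5p (0.91) and miR-182-5p (0.91), of 92 miRNAs with a median of 0.088. miR-182-5p belongs to a cluster that is abundant in sensory and other epithelia. Without Nrf2-/- controls 3 and 4 these values were 0.82, 0.84, 0.89, 0.73 and 0.66. Among 567 exon genes the highest were Cd52 (0.83), which encodes an epididymal glycoprotein of the sperm surface and is also expressed in lymphocytes, Ly6e (0.83), Got2 (0.83), the ribosomal protein gene Rpl13 (0.82) and Gm6548 (0.82). Crisp1 ranked 6 and Clu, which encodes the secreted chaperone clusterin, ranked 39. Without the same 2 libraries the exon values were between 0.33 and 0.47 for the first 5 genes, below those of the miRNAs. The libraries share depth and composition, and these values are a description.

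Other epithelial miRNAs were followed as a list of 8. miR-182-5p and miR-96-5p, from the miR-183 cluster, and miR-203-3p, a skin miRNA, had log2 changes of -1.01, -0.96 and -1.08 at low dose. miR-183-5p, from the same cluster as miR-182-5p, was at -0.15 (SE 1.07), miR-192-5p at -0.20 (SE 0.40) and miR-31-5p at -1.83 (SE 2.08). miR-375-3p, known from endocrine and gut epithelium, was at 0.41. In liver KO miR-182-5p was at -0.080, miR-203-3p at -0.39, miR-96-5p at -0.54, miR-183-5p at 0.28 and miR-31-5p at 0.063. There miR-192-5p was at -0.46, miR-194-5p at -0.16 and miR-375-3p at 0.12. All 8 were nearer to 0 than miR-141-3p (-1.35), miR-200a-3p (-1.08) or miR-200b-3p (-0.96). The other members lay among them, with miR-429-3p at -0.49, miR-200c-3p at -0.42 and miR-205-5p at -0.13. None of the 8 passed in any comparison where it was tested by edgeR. miR-203-3p ran from 929 to 1437 CPM in flox libraries.

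The epithelial programme, a list of 16 transcripts for adhesion, keratins and epithelial transcription factors, had 0 members called in each comparison with all libraries. In liver KO 12 of the 13 tested were lower than in flox, with a median log2 change of -0.85 beside -0.18 over all exon features, of which 0.0376% were called (0.0508% of all features outside miRNAs). Of the 5319 exon features in that fit, 3273 were lower. Cdh1 was at 17.4 ± 2.22 CPM in flox and 8.18 ± 7.44 CPM in liver KO libraries (SD, n = 4 each), with a log2 change of -0.85 (SE 0.37, adjusted p = 0.351 by edgeR). Epcam, another epithelial adhesion gene, was at -0.70 (SE 0.32), the keratin Krt8 at -1.15 (SE 0.37) and the splicing factor Esrp1 at -1.24 (SE 0.52). Unadjusted p by edgeR was under 0.05 for Cdh1, Epcam, Krt8 and Esrp1, as it was for 807 of the 5319 exon features. All 4 missed the threshold after adjustment.

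At low dose 13 of 14 tested transcripts of the epithelial programme were lower than in controls (median -0.62, all exon features -0.12, of which 0.0443% were called), and at medium dose 12 of 14 (median -0.85, all exon features -0.21). Of all 9024 exon features, 5669 were lower at low dose and 5896 at medium dose. At high dose all 14 were higher (median 0.66, all exon features 0.10, with 5257 of 9024 higher), which came from 1 of 2 libraries. The list summed to 228 CPM in high dose 1 and 32.75 CPM in high dose 2, against 26.8 to 126 CPM in WT controls. Without high dose 1 all 16 tested were lower (median -1.08, all exon features -0.26). The epididymis list had a median of -0.64 at low dose, -0.60 at medium dose, 1.07 at high dose, -0.19 in Nrf2-/- and -1.22 in liver KO. It was at -0.36 without high dose 1 and at -0.88 without Nrf2-/- controls 3 and 4. Cd52 fell in liver KO by 1.56 on the log2 scale (SE 0.28, adjusted p = 0.0303 by edgeR), the 1 listed epididymis gene called, and Clu was at -1.22 (SE 0.34, adjusted p = 0.142 by edgeR). Cd52 was at 113 ± 12.6 CPM in flox and 32.5 ± 22.3 CPM in liver KO libraries (SD, n = 4 each). That Cd52 call was lost without flox 2, 3 or 4 and without liver KO 1, 2 or 4, each left out singly.

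In Nrf2-/- mice all 12 tested transcripts of the epithelial programme had lower fitted levels with ethanol (median -0.81, all exon features -0.49, 0% called). Of all 5419 exon features in that fit, 4580 were lower as well. The controls split here too: the list summed to 367 and 323 CPM in controls 1 and 2, to 35.4 and 22.02 CPM in controls 3 and 4, and to between 44.5 and 119 CPM with ethanol. In the same fit all 11 sperm and spermatid transcripts were lower (median -0.81) and all 8 smooth muscle and fibroblast transcripts were higher (median 0.70), none of them called. Without controls 3 and 4, an alternative chosen after the data were seen that leaves 2 controls, 42.2% of 7992 exon features were called by edgeR. Of the 7992, 5883 were lower. Of the epithelial programme 12 of 14 were then called, all lower (median -1.49), with Cdh1 at -1.47 (SE 0.34, adjusted p = 0.00450 by edgeR). The sperm and spermatid list turned to higher in 11 of 11 (median 1.34, 10 called), and the epididymis list had 2 of 5 called. These calls rest on leaving out the 2 controls that stood apart, and the part of sample composition in them was not tested.

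Lcn5, an epididymal lipocalin, was at or near 0 in most libraries and reached 68.3 CPM in 1 flox library. Smooth muscle and fibroblast markers summed to 229 ± 90.1 CPM in flox and 132 ± 29.8 CPM in liver KO libraries (SD, n = 4 each), and all 8 had lower fitted levels, with 0 called, so stromal transcripts were lower alongside the members there. Of all 5319 exon features, 3273 were lower in that comparison. At low dose red blood cell transcripts rose: Hba-a1, Hba-a2, Hbb-bs and Hbb-bt, which encode hemoglobin chains, were higher by 2.86 to 3.06 on the log2 scale (adjusted p from 0.0279 to 0.0495 by edgeR), 4 of the 6 listed and 4 of the 11 features called among 17937 (0.0613%). With any 1 control or low-dose library left out, 0 listed genes were called, apart from 3 without control 4. Red blood cell markers were at 34.7 to 63.8 CPM in low-dose libraries and 1.89 to 13.5 CPM in WT controls. The part of these transcripts in the miRNA results was not tested.

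Known miR-200 targets and mesenchymal regulators, a list of 15, had 0 members called in any comparison with all libraries. Their median log2 change was 0.16 at low dose (7 of 10 tested higher, beside 3355 of 9024 exon features). It was 0.32 at medium dose (8 of 10 higher, beside 3128 of 9024), -0.03 at high dose, -0.07 in Nrf2-/- and 0.02 in liver KO. Without Nrf2-/- controls 3 and 4 it was 0.34 in Nrf2-/-, with 1 of 8 tested called, the matrix gene Fn1 (1.56, adjusted p = 0.00300 by edgeR). That is a smaller share than the 42.2% called among all 7992 exon features. Of the 8 tested, 5 were higher and 3 lower. In that fit Zeb1 was at 1.49 (SE 0.68, adjusted p = 0.0796 by edgeR) and was not called. Zeb1 was at 1.18 ± 0.945 CPM in WT controls and 1.05 ± 0.106 CPM at low dose (SD, n = 4 each), from 22 and 32 counts in all. Zeb2 was at 0.691 ± 0.655 and 1.06 ± 0.418 CPM. Zeb1 and Zeb2 had log2 changes of 0.03 (SE 0.49) and 0.27 (SE 0.56) at low dose and did not pass the filter in the other tables with all libraries.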

How the data were processed

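Small RNA from mouse sperm (28 libraries, Trizol extraction and Qiaseq small RNA kit, per the labels) was used as the raw read counts per feature that the authors deposited in 3 tables. The aligner, counting tool, strand setting and build are not given in the sources used here. Groups and replicate numbers came from the labels, and every column was mapped.

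miRNA counts were tested with edgeR 4.0.16 in R 4.3.3 (filterByExpr, TMM, quasi-likelihood F test, two-sided, Benjamini-Hochberg over all miRNAs of a fit, adjusted p under 0.05). Features of the other classes were fitted as a separate family. The 12 WT libraries were fitted together. The Nrf2-/- and the flox and liver KO tables were fitted alone, and the difference of responses over 20 libraries. SE is the log2 change divided by the root of F.

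An entry of 0 was treated as missing where the median CPM of libraries above 0 gave an expected count of at least 50, with at least 3 such libraries and a lowest count above 0 of at least 10. A member with missing entries was tested in a fit across all miRNAs without those libraries.

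Correlations with Crisp1 used 100000 two-sided permutations within groups, adjusted over 176 miRNAs. Crisp1 and other single exons are given as CPM of all counts. Alternatives were DESeq2 1.42.0, limma 3.58.1 on log2 CPM, other library sizes, no filter, only the groups compared, Crisp1 as a covariate, a replicate block and each library left out. Python 3.11.15 was used for correlations and figures. Scripts were tested on simulated data.

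The members and lists were chosen with earlier results of these data known. Named were the 6 members, their other arms, Crisp1, Cdh1, Epcam, Zeb1, Zeb2, Lcn5, Cd52, Clu, listed genes past the threshold, and the 5 miRNAs and 5 exon genes (mean of at least 10 CPM per table, no missing entry) most like the members. Krt8, Esrp1, Fn1 and the other epithelial miRNAs were named after their values were seen.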

Additional observations from a re-analysis of the deposited data

Results flagged for a closer look

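Of 28 groups of 4 libraries with counts above 0, 2 held a library whose gap to its nearest neighbour was large against the range of its group (past Dixon's critical value, which chance passes in about 1 of 20 groups). miR-205-5p stood at 7408 CPM in WT control 1, against 607 to 959 CPM in the other WT controls. miR-200b-3p stood at 2034 CPM in flox 2, below 3086 to 3236 CPM in the other flox libraries.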

How the results depend on the processing

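No member passed the threshold under any setting tried, apart from miR-141-3p in liver KO with no filter on low counts (1 member called, log2 change -1.31, adjusted p = 0.0169 by edgeR). Counts of all miRNAs called moved from 0 to 24 at low dose with DESeq2, 9 with no filter and 2 with only the groups compared, to 7 and 3 at medium dose with DESeq2 and no filter, to 7 at high dose and 7 for the difference of responses with DESeq2 (1 with only the groups compared), and with no filter to 1 in Nrf2-/- and 2 in liver KO. Directions in the Nrf2-/- comparison were the least stable: miR-429-3p was at -0.10 with all classes as library size and -0.28 without TMM, miR-200a-3p at 1.04 and miR-205-5p at 0.60 with Crisp1 as a covariate, and at 1.198 and 0.95 with limma. Without Nrf2-/- controls 3 and 4, miR-200b-3p was at -0.38 and miR-429-3p at -0.80. With Crisp1 as a covariate, miR-200c-3p was at 0.25 and miR-205-5p at 0.55 in liver KO. The difference of responses of miR-141-3p was -0.043 with all classes as library size. Without WT controls 1 and 3, miR-200b-3p was at 0.13 and miR-429-3p at 0.075 at low dose, and miR-200b-3p, miR-429-3p and miR-205-5p at 0.022, 0.55 and 0.080 at high dose. With zeros kept as deposited, r of miR-200c-3p with Crisp1 was -0.25. Listed exons called with no filter were 10 at low dose (4 with it) and 5 in liver KO (1 with it). At medium and high dose they were 1 and 2 with no filter (0 with it). In Nrf2-/- they were 36 without controls 3 and 4 (0 with them), in a fit that called 42.2% of 7992 exon features. The cause was not tested.

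Leaving out 1 library at a time gave 0 members called in every comparison. At low dose miR-200b-3p ran from -1.41 to -0.35 and miR-429-3p from -1.73 to -0.26, and at high dose miR-200b-3p from -1.71 to -0.54. Directions changed for miR-429-3p (-1.76 to 0.14) and miR-205-5p (-3.11 to 0.21) at high dose, for miR-200a-3p (-0.36 to 0.55), miR-429-3p (-0.28 to 0.66) and miR-205-5p (-0.97 to 0.29) in Nrf2-/-, for miR-205-5p in liver KO (-0.27 to 0.12) and for the difference of responses of miR-141-3p (-0.94 to 1.28). The difference of responses ran from 0.64 to 3.42 for miR-205-5p and from 0.42 to 1.88 for miR-429-3p. Listed exons called ran from 0 to 3 at low dose and from 0 to 4 in liver KO.

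The labels do not say that equal replicate numbers pair libraries, and deviations of same-numbered libraries did not correlate throughout (-0.30 to 0.42 for flox and liver KO, -0.27 to -0.08 for WT control and low dose, -0.01 to 0.16 for Nrf2-/-). With the replicate number as a block, 0 members were called, 1 miRNA was called in liver KO, 2 listed exons in liver KO, and in Nrf2-/- miR-200a-3p was at 1.19 and miR-205-5p at 0.90.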
